A study of Homo sapiens with 6 samples.

Results

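The tetraspanins, a family of 33 genes for small cell-surface proteins, were followed in MDA-MB-436 cells, a human triple-negative breast cancer line. They were listed by symbol, and all 33 had a row among the 37887 rows of the count table. The family was selected on values of this same comparison, because TSPAN1 was among its largest rises, so the values of TSPAN1 are a description without a test and calls for the other members describe a contrast that was already known. Of the 33 members, 26 had enough counts to be tested among 15355 tested genes. Another 5 had some counts (CD53, TSPAN32, PRPH2, TSPAN16 and UPK1A), and TSPAN8 and TSPAN19 had 0 counts in every library.

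RNA-seq was done on 3 control and 3 shMUC1 libraries. Every library came from MDA-MB-436 cells carrying a tetracycline-inducible shRNA against MUC1, a transmembrane mucin; control cells received 0.1% DMSO as vehicle and shMUC1 cells received 500 ng/ml doxycycline, which switches the shRNA on. The titles call the controls control shRNA, whereas their treatment label names the vehicle. The comparison asks which transcripts change when MUC1 is silenced. Doxycycline was given to shMUC1 cells alone, so an effect of the drug and an effect of MUC1 silencing cannot be told apart, 1 engineered line stands for the condition, and the length of treatment is not given in the sources used here. Cells were grown in triplicate, and nothing in the labels says whether the replicates were treated on separate occasions, so p-values measure the spread between these libraries, which may be technical.

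Tetraspanins cross the membrane several times and pack with each other and with partner proteins, such as integrins, immunoglobulin-family proteins and proteases, into patches that shape adhesion, trafficking and the release of vesicles. Some, such as CD9, CD63 and CD81, are used as markers of extracellular vesicles. The TspanC8 group, named for its conserved cysteines, escorts the protease ADAM10 to the cell surface, where it cleaves Notch and other substrates. In epithelial cells TSPAN1 has been followed as a tumour-associated member.

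Depth ranged from 18678307 counts (shMUC1 replicate 3) to 27825546 counts (shMUC1 replicate 1). MUC1, the targeted gene, stood at 4.24, 3.45 and 3.95 CPM (counts per 1000000 library counts, TMM-scaled) in the controls and at 2.61, 1.98 and 1.83 CPM in the shMUC1 libraries, all shMUC1 libraries below all controls. Its log2 fold change, shMUC1 over control, was -0.84 (SE 0.214; adjusted p = 0.00119; edgeR quasi-likelihood test with Benjamini-Hochberg adjustment over all tested genes, used for every adjusted p here). Marker lists were read beside all tested genes, of which 25.2% rose and 23.6% fell. Of 18 epithelial markers, 10 were tested, 6 rose and 2 fell (CLDN3 and CLDN4). The summed level of the list ran from 551.7 to 589.5 CPM in controls and from 1115 to 1154 CPM in shMUC1 libraries. Most of it was KRT8 (426.4 and 825.1 CPM in control and shMUC1 libraries) and KRT18 (130.9 and 266.3 CPM). GRHL2, OVOL1 and ST14 had 0 counts in all libraries. KRT19 and RAB25 had 0 counts in every shMUC1 library and at most 4 in any control. Of 8 leukocyte markers, 4 were tested and 2 rose, with sums of 6.158 to 6.979 CPM against 8.439 to 11.73 CPM. CD3E and MS4A1 had 0 counts in all libraries. Of 6 mesenchymal markers, all were tested, 5 fell and 1 rose, with sums of 3556 to 3614 CPM against 3334 to 3406 CPM. The hormone receptor genes ESR1 and PGR were too low to test, and PGR had 0 counts in every shMUC1 library and at most 4 in any control. ERBB2, listed with them, was tested and fell from 44.7 CPM in controls to 39.0 CPM in shMUC1 libraries (log2 fold change -0.20, edgeR adjusted p = 0.0074). The part of the marker changes in the tetraspanin values was not tested. Because the libraries are bulk RNA, fewer cells of a type and less RNA per cell cannot be told apart.

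Sequences upstream of the start sites are shown for TSPAN1 and TSPAN10, the members with the largest changes in either direction, and for TSPAN13, the member with the next largest rise. They are the 250 bases before each RefSeq start (GRCh38.p14), read on the gene's strand from 5′ to 3′ in lower case, with CACCTG or its complement CAGGTG, an E-box bound by ZEB and Snail repressors, in capitals. TSPAN1 (chr1:46174837-46175086, plus strand) held neither box, 4 CpG and 51.2% G or C. TSPAN10 (chr17:81642055-81642304, plus strand), whose RefSeq start lies inside the gene body of the GENCODE annotation (start at 81637171), held 1 box at -176 and 4 CpG. TSPAN13 (chr7:16753505-16753754, plus strand) held 1 box at -221 and 22 CpG. The GENCODE start of TSPAN13 (16753535) lies near the beginning of its window, at the box, so most of that window is inside the annotated gene body. For TSPAN1 the GENCODE start (46175073) lies near the end of the window.

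TSPAN1: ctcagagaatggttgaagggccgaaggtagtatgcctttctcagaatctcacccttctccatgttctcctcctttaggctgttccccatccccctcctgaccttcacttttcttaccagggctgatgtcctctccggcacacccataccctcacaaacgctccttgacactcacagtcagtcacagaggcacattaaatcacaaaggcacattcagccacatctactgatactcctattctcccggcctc

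TSPAN10: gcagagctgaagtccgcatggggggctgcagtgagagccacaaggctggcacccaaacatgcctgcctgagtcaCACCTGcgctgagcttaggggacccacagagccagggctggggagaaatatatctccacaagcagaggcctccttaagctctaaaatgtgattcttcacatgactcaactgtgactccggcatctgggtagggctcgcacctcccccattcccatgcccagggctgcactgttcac

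TSPAN13: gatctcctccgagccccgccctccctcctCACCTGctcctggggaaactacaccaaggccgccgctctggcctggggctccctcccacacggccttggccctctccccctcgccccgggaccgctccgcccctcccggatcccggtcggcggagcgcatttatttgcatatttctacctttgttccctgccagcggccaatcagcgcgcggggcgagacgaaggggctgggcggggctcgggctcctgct

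Such boxes are common: of 27305 genes with a RefSeq window, 20.6% held one, and 10 of the 25 members with a window did. The 25 members had 45 windows and the 27305 genes had 35116. Members thus had more windows each in which a box could lie, and these shares are not directly comparable. Per window, 17.5% of all windows and 16.0% of the windows of tested genes held a box. The 35116 windows of all genes held a median of 11 CpG, and the 16341 windows of tested genes a median of 20. The windows of TSPAN1 and TSPAN10 therefore had fewer CpG than the median window and that of TSPAN13 more than it. ZEB1, which encodes a repressor of epithelial genes, stood at 35.1 ± 2.43 CPM in controls and at 17.9 ± 0.584 CPM in shMUC1 libraries (SD, n = 3), and whether this bears on any tetraspanin was not tested.

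TSPAN1 was nearly silent in the controls and readily counted in the shMUC1 libraries. Its raw counts were 12, 16 and 18 in the controls and 210, 264 and 168 in the shMUC1 libraries. In CPM these were 0.547, 0.657 and 0.697 CPM against 7.60, 10.2 and 9.03 CPM, so the lowest shMUC1 library lay above the highest control by a wide margin. Mean levels were 0.634 ± 0.0774 CPM and 8.96 ± 1.33 CPM (SD, n = 3), a fold of 14.1, and the fitted log2 fold change was 3.80 (SE 0.214). It ranked 8 from the highest of the 15355 tested genes. Because the family was selected on this rise, the size and rank of the change follow from the selection and are a description. The gene lies at chr1:46175073-46185958 on the plus strand (GENCODE release 29, GRCh38), and none of its exons overlapped exons of another annotated gene.

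The other members moved far less, and in both directions. Among the 26 tested, 6 rose and 9 fell with an adjusted p under 0.05, and 11 did not pass. That is 23.1% higher, where 25.2% of all tested genes rose, and 34.6% lower, where 23.6% of all tested genes fell. Without TSPAN1, on which the family was selected, 5 of 25 rose and 9 fell. Past a fold of 2 there was 1 member higher, TSPAN1 itself, from which nothing is read (2.21% of all tested genes passed), and 1 member lower, TSPAN10, where 3.74% did. The median log2 fold change was -0.08 over the tested members, TSPAN1 included, -0.09 without it, and 0.00058 over all tested genes. In 15 of the 26 tested members, or 57.7%, the control and shMUC1 libraries did not overlap in CPM, against 54.8% of all tested genes. The share of members whose groups did not overlap was thus near that of all genes. The plot of CPM by library shows the levels of the tested members.

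**Figure D1:**
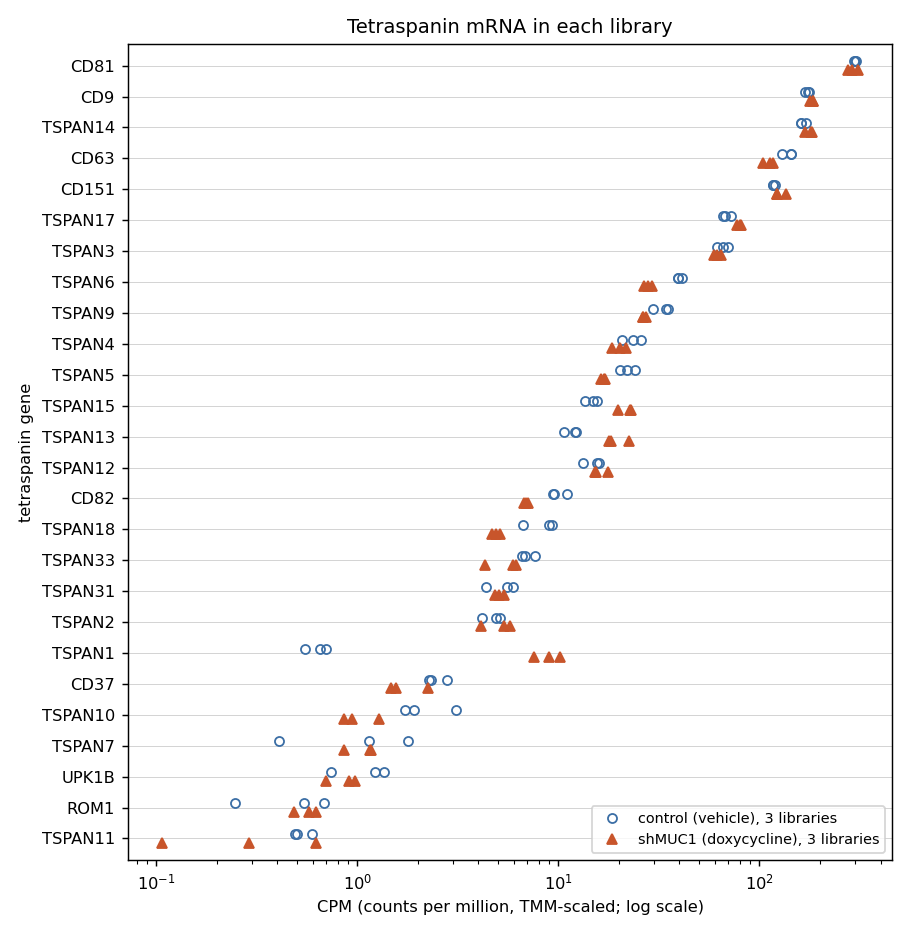
CPM of the 26 tested tetraspanins in each library on a log scale, with open circles for the 3 control and triangles for the 3 shMUC1 libraries, ordered by mean. TSPAN1 shows the widest gap between the groups, and all other members but TSPAN10 differ by less than 2-fold.

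**Figure D2:**
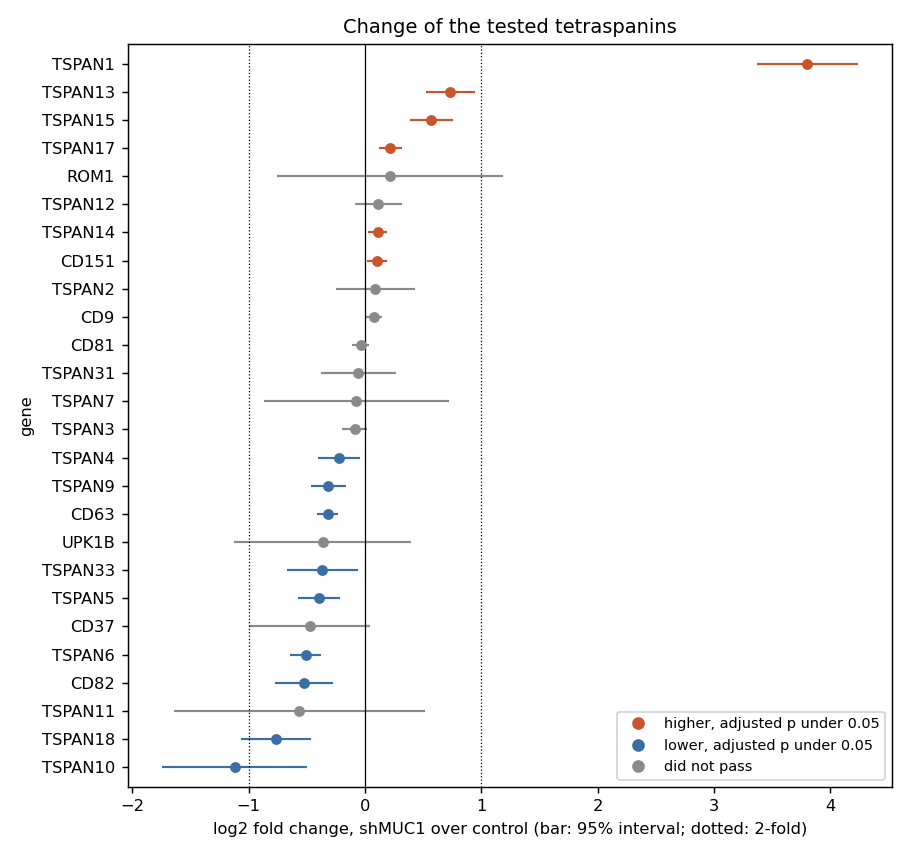
Fitted log2 fold change of each tested tetraspanin, shMUC1 over control, with 95% intervals and dotted lines at 2-fold. TSPAN1 stands at 3.80, TSPAN10 at -1.12, and the point estimates of all others lie between the dotted lines. The intervals of TSPAN10, TSPAN18, UPK1B, TSPAN11 and ROM1 cross a dotted line.

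The other rises were led by TSPAN13. Its counts were 233, 298 and 313 in the controls and 503, 458 and 420 in the shMUC1 libraries, that is 11.7 ± 0.896 CPM and 19.5 ± 2.65 CPM (SD, n = 3). The log2 fold change was 0.73 (SE 0.103; edgeR adjusted p = 2.07e-07). TSPAN15, a TspanC8 member, rose by a log2 fold change of 0.57 (SE 0.0919; edgeR adjusted p = 2.38e-06). In neither gene did a shMUC1 library fall into the range of the controls.

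All 6 TspanC8 genes were tested, and all passed the test, 3 higher, where 25.2% of all tested genes rose, and 3 lower, where 23.6% fell. TSPAN15, TSPAN17 and TSPAN14 rose and TSPAN10, TSPAN5 and TSPAN33 fell. TSPAN17 went from 68.4 ± 3.48 CPM to 79.5 ± 2.25 CPM (log2 fold change 0.22, SE 0.0491, edgeR adjusted p = 3.12e-04). TSPAN14, by far the highest of the group in CPM but below TSPAN17 per length of exon, went from 164.5 ± 5.80 to 177.1 ± 7.01 CPM. Its groups overlapped, with a log2 fold change of 0.11 (edgeR adjusted p = 0.0196). TSPAN5 fell by 0.40 on the log2 scale (SE 0.0882; edgeR adjusted p = 2.63e-04) and TSPAN33 by 0.37 (SE 0.150; edgeR adjusted p = 0.0419). The calls for TSPAN14 and TSPAN33 were lost in 6 and 5 of the alternatives run. ADAM10, the protease they escort, stood at 179.1 ± 7.12 CPM in controls and 184.2 ± 5.05 CPM in shMUC1 libraries (log2 fold change 0.04; edgeR adjusted p = 0.394). The summed CPM of the TspanC8 group was 278.9 ± 5.48 in controls and 301.6 ± 10.1 in shMUC1 libraries (SD, n = 3).

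TSPAN10 was the only member past a fold of 2 in the downward direction. Its counts were 42, 42 and 80 in the controls and 26, 33 and 16 in the shMUC1 libraries, so the 2 groups did not overlap and control replicate 3 stood highest. The means were 2.25 ± 0.744 CPM and 1.03 ± 0.224 CPM (SD, n = 3) and the log2 fold change was -1.12 (SE 0.308; edgeR adjusted p = 0.00259). Its 95% interval, -1.74 to -0.49, includes changes smaller than 2-fold. Without control replicate 3 it was -0.82 with edgeR adjusted p = 0.0607. The gene lies at chr17:81637171-81648749 (plus strand) and shares 36 bases of exon with NPLOC4 on the opposite strand. NPLOC4, which encodes a cofactor of the p97 ATPase, stood at 144.0 ± 1.65 CPM in controls and at 74.4 ± 1.15 CPM in shMUC1 libraries (log2 fold change -0.95, SE 0.0411; edgeR adjusted p = 7.97e-21). The counting was not stated to use strand, so reads of the 2 genes in the shared part cannot be told apart. The TSPAN10 counts were 1.19% to 2.14% of the NPLOC4 counts in the controls and 1.16% to 1.74% in the shMUC1 libraries, ranges that overlap.

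Around TSPAN1, PIK3R3, which encodes a regulatory subunit of PI 3-kinase, lies 42.0 kb away and fell (31.3 ± 1.54 CPM to 17.9 ± 1.04 CPM; log2 fold change -0.81, SE 0.079, edgeR adjusted p = 6.59e-11). POMGNT1 and RAD54L did not pass, and LRRC41 rose with a log2 fold change of 0.20. Around TSPAN10, besides NPLOC4, ARL16 fell (log2 fold change -0.25, edgeR adjusted p = 0.0404) and FAAP100, CCDC137, OXLD1, HGS, MRPL12 and SLC25A10 did not pass. These are the tested protein-coding genes within 100 kb of each gene body. Among the members themselves, CD151 and TSPAN4 lie 3.0 kb apart on chromosome 11 and passed in opposite directions, both calls being lost in several of the alternatives run. CD82 and TSPAN18, 106.1 kb apart on the same chromosome, both fell. TSPAN32, untested, and CD81, which did not pass, lie 58.0 kb apart there.

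Of the 3 vesicle markers, CD63 fell and CD9 and CD81 did not pass. CD63, a late endosome and vesicle protein, fell by 0.32 on the log2 scale (SE 0.0449; edgeR adjusted p = 1.77e-07), with 142.9, 128.8 and 143.5 CPM in the controls and 104.5, 112.4 and 116.2 CPM in the shMUC1 libraries. All shMUC1 libraries lay below all controls. CD9, which binds integrins and immunoglobulin-family partners, stood at 176.4, 175.2 and 168.2 CPM against 179.1, 183.7 and 185.2 CPM. The CD9 libraries did not overlap between groups, yet the log2 fold change of 0.08 did not pass (edgeR adjusted p = 0.0828; 95% interval 0.0022 to 0.15). CD81, an integrin-linked member, stood at 300.9, 298.8 and 296.2 CPM against 288.7, 307.8 and 276.3 CPM, overlapping, with a log2 fold change of -0.04 (95% interval -0.11 to 0.03; edgeR adjusted p = 0.416).

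CD151, the tetraspanin bound to laminin-binding integrins, stood at 119.6, 116.2 and 117.2 CPM in the controls and at 122.1, 135.7 and 121.7 CPM in the shMUC1 libraries, which all lay above the controls. Its log2 fold change was 0.11 (SE 0.0428; edgeR adjusted p = 0.0391), and the call was lost in 7 of the alternatives run. It shares 257 exon bases with POLR2L on the opposite strand, itself 60.9 CPM in controls and 72.9 CPM in shMUC1 libraries. CD82, long studied as a suppressor of metastasis, went from 9.99 ± 0.909 CPM to 6.93 ± 0.169 CPM (SD, n = 3; log2 fold change -0.53, SE 0.124, edgeR adjusted p = 5.62e-04). TSPAN4, known from migrasomes, fell by 0.22 (SE 0.0886; edgeR adjusted p = 0.0373) with overlapping groups, and its call was lost in 6 of the alternatives run.

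Several other members fell. TSPAN18, described in endothelial calcium signalling, went from 8.33 ± 1.42 CPM to 4.90 ± 0.201 CPM (SD, n = 3; log2 fold change -0.76, SE 0.147, edgeR adjusted p = 3.8e-05). TSPAN6 went from 39.8 ± 1.09 CPM to 27.9 ± 1.28 CPM (log2 fold change -0.51, SE 0.0673, edgeR adjusted p = 5.19e-08), and TSPAN9 from 33.1 ± 3.06 CPM to 26.6 ± 0.603 CPM (log2 fold change -0.32, SE 0.0745, edgeR adjusted p = 5.29e-04). In all of these the shMUC1 libraries lay below the controls. TSPAN18 shares 74 exon bases with TP53I11 on the opposite strand, which stood at 70.0 CPM in controls and 52.6 CPM in shMUC1 libraries (log2 fold change -0.41, edgeR adjusted p = 1.67e-08), and without a stated strand setting reads in the shared part cannot be told apart. CD63, CD82 and TSPAN14 share exon bases with antisense genes that had no row in the table. TSPAN3 (log2 fold change -0.09, 95% interval -0.20 to 0.02), TSPAN12, a Frizzled co-receptor (0.11, -0.09 to 0.31), TSPAN2 (0.09, -0.25 to 0.43) and TSPAN31 (-0.06, -0.38 to 0.27) did not pass. TSPAN31 shares 25.4% of its exon bases with CDK4 on the opposite strand.

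Members known from specialised tissues were low in both groups. CD37, a leukocyte tetraspanin, stood at 2.33, 2.79 and 2.28 CPM in the controls and 2.24, 1.48 and 1.56 CPM in the shMUC1 libraries, not overlapping and not passing (log2 fold change -0.47, edgeR adjusted p = 0.127). The urothelial UPK1B had counts of 27, 18 and 35 against 27, 18 and 17 (log2 fold change -0.36, 95% interval -1.12 to 0.40). TSPAN7 (log2 fold change -0.08, 95% interval -0.87 to 0.72), ROM1, a photoreceptor protein (0.21, -0.76 to 1.19), and TSPAN11 (-0.57, -1.65 to 0.51) had wide intervals and did not pass. In TSPAN7, control replicate 1 stood at 0.411 CPM and control replicate 3 at 1.78 CPM. ROM1 shares 24.8% of its exon bases with EML3 (16.6 CPM in controls, 16.0 CPM in shMUC1 libraries) on the opposite strand. CD37 shares 7.7% with TEAD2 (22.25 and 22.6 CPM), also on the opposite strand. TSPAN7 shares 21.7% with AF241726.2 on the same strand, which had no row. Without a stated strand setting, reads in these shared parts cannot be told apart. The 5 untested members with counts did not exceed 8 counts or 0.311 CPM in any library. For TSPAN8 and TSPAN19, 0 counts allow a level of up to 0.109 to 0.161 CPM (3 counts) depending on the library. This holds if each read pair was counted once, and the bound would be higher if a pair was counted as 2 reads.

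Levels between genes were compared per length, as TPM, counts per base of exon scaled to a sum of 1000000 per library. In the controls CD63 was highest at 213.8 ± 15.7 TPM, followed by CD9 at 169.1 ± 2.73, CD81 at 164.1 ± 2.10, CD151 at 121.5 ± 2.91 and TSPAN17 at 53.3 ± 2.95 (SD, n = 3). In the controls each of these stood apart from the next. In the shMUC1 libraries CD9 (168.1 ± 2.30), CD63 (161.6 ± 8.08) and CD81 (150.7 ± 7.87) came first, each overlapping the next, and CD151 (123.1 ± 7.25) and TSPAN17 (58.4 ± 1.64) followed. With the longest transcript as the length, CD63 was at 348.7, CD9 at 308.4, CD81 at 177.1 and CD151 at 196.7 TPM in the controls, so CD81 and CD151 changed places, and the same 5 members remained highest. TSPAN1 moved from place 24 of 33 (1.09 ± 0.140 TPM) to place 13 (14.5 ± 2.08 TPM), where it overlapped TSPAN9 above it and TSPAN4 below it. Its share of the summed family TPM went from 0.111% to 1.575%, and that of CD63 from 21.7% to 17.6%. The family sum was 1231 ± 16.4 CPM in the controls and 1221 ± 33.4 CPM in the shMUC1 libraries, which overlapped. Summed as TPM it was 982.4 ± 31.9 in the controls (945.6 to 1003) and 919.5 ± 20.7 in the shMUC1 libraries (900.6 to 941.7), which did not overlap. TPM, unlike CPM, was not TMM-scaled, and genes higher in CPM could be lower in TPM. CD9 stood at 173.3 and 182.7 CPM in control and shMUC1 libraries but at 169.1 and 168.1 TPM. ADAM10 stood at 179.1 and 184.2 CPM but at 45.03 and 43.65 TPM. The part of scaling in the lower TPM sum was not tested. At a mean of at least 1 CPM, 23 members were expressed in each group and 22 in both, TSPAN1 joining and UPK1B leaving the set.

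**Figure D3:**
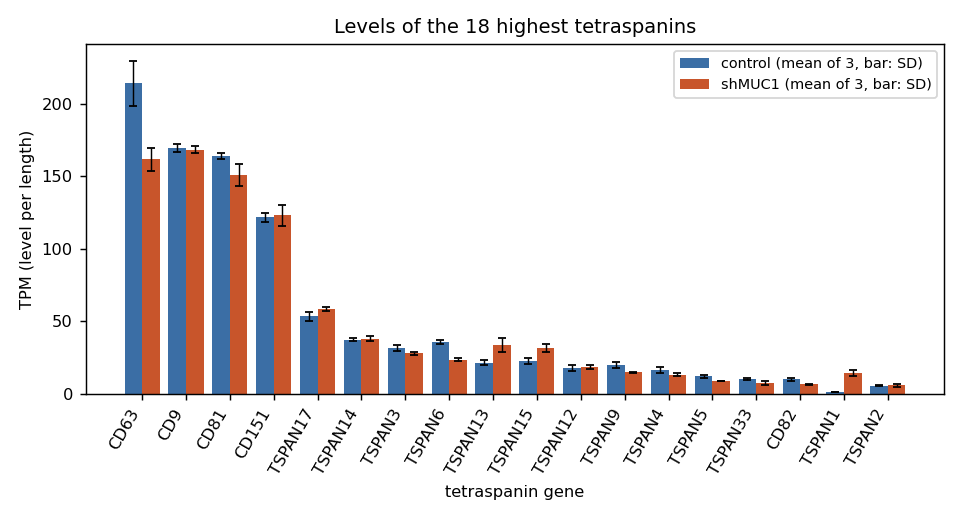
Mean TPM of the 18 tetraspanins highest per length, control beside shMUC1, with bars of 1 SD over 3 libraries. CD63, CD9, CD81 and CD151 stand above 100 TPM in both groups, and TSPAN1 is close to 0 in the controls.

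Genes for tetraspanin partner proteins changed in both directions. Of 40 listed, 36 were tested, 11 rose (30.6%, where 25.2% of all tested genes rose) and 16 fell (44.4%, where 23.6% of all tested genes fell). UPK3B, a uroplakin that pairs with the UPK1B tetraspanin, showed the largest absolute log2 fold change: 22, 14 and 8 counts in the controls against 174, 217 and 85 in the shMUC1 libraries. That was 0.629 ± 0.350 CPM and 6.43 ± 1.93 CPM (SD, n = 3; log2 fold change 3.39, SE 0.276, edgeR adjusted p = 5.76e-13), and UPK3B has close paralogs, between which the counting could split reads, so its value is uncertain. EPCAM, an epithelial adhesion protein, went from 3.28 ± 0.674 to 14.3 ± 1.02 CPM (log2 fold change 2.13, SE 0.140, edgeR adjusted p = 1.76e-15). ITGA2, the collagen-binding integrin chain, went from 46.2 ± 0.615 to 94.6 ± 3.76 CPM (log2 fold change 1.03, SE 0.0498, edgeR adjusted p = 2.13e-19). The Notch receptors NOTCH3 (log2 fold change -1.23, SE 0.0973, edgeR adjusted p = 2.45e-13) and NOTCH1 (-0.85, SE 0.0595, edgeR adjusted p = 1.04e-14), substrates of ADAM10, fell, as did the integrin chain ITGA4 (-0.87, SE 0.0707, edgeR adjusted p = 5.6e-13). Among the integrin chains bound by CD151, chosen after their values were seen, ITGA6 (log2 fold change 0.80, edgeR adjusted p = 1.62e-22), ITGB4 (0.64, edgeR adjusted p = 1.05e-14) and ITGB1 (0.08, edgeR adjusted p = 0.0373) rose and ITGA3 fell (-0.61, edgeR adjusted p = 7.23e-18). NDP and UPK3A had 0 counts in all libraries.

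**Figure D4:**
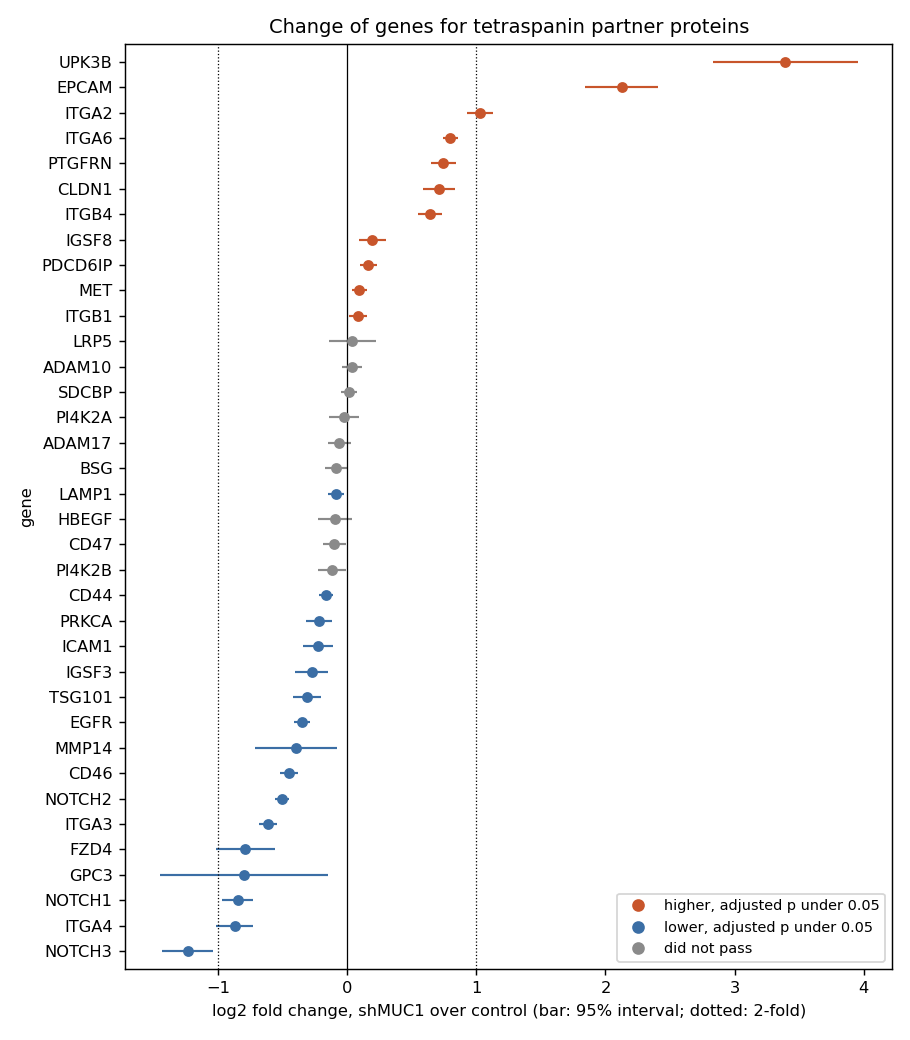
Fitted log2 fold change of the 36 tested partner genes, shMUC1 over control, with 95% intervals and dotted lines at 2-fold. The point estimates of UPK3B, EPCAM and ITGA2 lie beyond 2-fold above and that of NOTCH3 beyond 2-fold below.

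The L6 proteins, 4-span proteins once grouped with tetraspanins, were tested in 2 of 6 cases: TM4SF1 rose (49.9 ± 2.07 to 59.8 ± 1.79 CPM, log2 fold change 0.26, SE 0.0545, edgeR adjusted p = 1.09e-04) and TM4SF19 fell (4.50 ± 0.381 to 2.53 ± 0.511 CPM, log2 fold change -0.81, SE 0.196, edgeR adjusted p = 7.19e-04).

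The 7-base word ATCAGTA in 3′ UTRs had been picked from an earlier reading of this same comparison, so its presence is a description. It occurred in 1 of the 26 tested members (3.85%), TSPAN7, and in 14.4% of 13032 tested genes with an annotated 3′ UTR. The site, with the word in capitals and 10 bases on either side, starts at base 757 of a 3′ UTR of 1013 bases on chromosome X (GENCODE release 29, GRCh38). Of the 5 TSPAN7 transcripts with an annotated 3′ UTR, 2 hold the word in it and the others do not. Whether the site is coding sequence in those others was not examined.

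TSPAN7 site: atcacggccaATCAGTAtgagatggtg

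TSPAN7 did not pass the test (above, -0.08). The shorter core TCAGTA occurred in 10 of 26 tested members, or 38.5%, against 41.9% of all tested genes with a 3′ UTR. Of the 10 with it, 1 fell and 3 rose, and of the 16 without it, 8 fell and 3 rose, TSPAN1 among them. Among all tested genes with a 3′ UTR, 32.7% of the 5455 with the core fell and 25.2% rose, and 19.5% of the 7577 without it fell and 29.9% rose. Numbers of members this small describe these genes alone. Of the 9 other genes looked at (NPLOC4, PIK3R3 and 7 partner genes), ATCAGTA occurred in NPLOC4, which fell, and in ITGA2, which rose.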

How the data were processed

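RNA-seq was done on 6 MDA-MB-436 libraries, 3 control and 3 shMUC1. The authors deposited raw counts per gene, not normalized, for all libraries in 1 table with gene symbols as row names. The submitters' processing notes name CASAVA 1.8.2, STAR 2.7.9a, featureCounts and DESeq2 1.24.0 and the build GRCh38.p7; the strand setting and the handling of read pairs are not given in the sources used here. Of 40 member counts between 1 and 20, 72.5% were even, so a pair may have been counted as 2 reads. No molecular identifiers were used, as far as stated, so floors reflect counting error alone.

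Groups came from the sample titles and treatment labels. The labels give the same replicate numbers in both groups, but deviations from the group means correlated at 0.00493, -0.0324 and -0.0382, so the numbers were not used as pairs. Genes passing the edgeR filterByExpr rule were tested with glmQLFit and glmQLFTest (edgeR 4.0.16, limma 3.58.1, R 4.3.3; TMM scaling; group as the sole term; Benjamini-Hochberg adjustment over 15355 genes), with the test checked on simulated data. Alternatives used DESeq2 1.42.0, limma-voom and others given below. CPM and TPM were computed here; TPM used exon lengths from GENCODE release 29 (GRCh38), matched for 98.2% of 37885 distinct row names. Positions are from GENCODE release 29, and upstream windows from RefSeq (GRCh38.p14).

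Named genes were all members, MUC1, partner genes among the 6 with the largest absolute log2 fold change with adjusted p under 0.05 plus ADAM10, and protein-coding genes within 100 kb of a member past 2-fold. Outside this rule, and chosen after their values were seen, are the integrin chains bound by CD151, ZEB1, the L6 genes and genes sharing exons with a member. So are the markers KRT8, KRT18, CLDN3, CLDN4 and ERBB2, and listed genes at 0 counts or too low to test. The members, lists and rules were chosen with earlier results of these data known.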

Additional observations from a re-analysis of the deposited data

How the results depend on the processing

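Alternatives were other scaling, testing without a filter on low counts, requiring a mean of 50 counts or more, DESeq2, limma-voom, the replicate block, halved counts and leaving out each library. Of 357 values of tested members under them, 324 kept their direction and side of the threshold, 25 kept their direction but did not pass, and 8 changed sign. The median log2 fold change ranged from -0.153 to -0.065, members higher from 4 to 6 and members lower from 7 to 9. At a fold over 1.5, 2 members were called higher and 2 lower. TSPAN10 was untested with a mean of at least 50 counts, which left 0 called lower, and 0 to 1 were called lower without one library (0 without control replicate 3). TSPAN7 changed sign to 0.1232 in limma-voom and 0.0578 with the replicate block, and without 1 library it ranged from -0.45 to 0.42, including 0.42 without control replicate 3 and 0.0428 without shMUC1 replicate 3. Without 1 library, TSPAN2 ranged from -0.016 to 0.23, TSPAN31 from -0.18 to 0.029, CD81 from -0.077 to 0.002163 and ROM1 from -0.11 to 0.51. The cause was not tested. With the replicate block 6 members were higher and 9 lower, with a median of -0.068, and DESeq2 gave 5 and 7. Members at low counts, such as TSPAN7, ROM1, TSPAN11 and TSPAN10, had the least precise values.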
